A study of Mus musculus with 11 samples.

Results

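Cell division runs on a programme of transcripts that can be split by the step they serve. The 35 genes described here are a list of such genes, matched by symbol in 2 deposited count tables of mouse mitral leaflets, the paired flaps of the valve on the left side of the heart. They are 15 genes of DNA replication and 20 genes of mitosis. All 35 were found among the 24062 genes of one table and the 26667 genes of the other, which together hold 28591 gene symbols. All 35 also passed the filter on low counts in both, among 14244 and 16160 tested genes.

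Knockout of Ift88 was studied in 3 libraries, whose mice carried NfatC1Cre and floxed Ift88 alleles (Ift88f/f). The 2 libraries set against them also carried NfatC1Cre, with intact Ift88 (Ift88+/+). The Ift88 protein belongs to the intraflagellar transport machinery that assembles cilia, and Nfatc1 is active in the endocardial lineage of the valve, so cells of other lineages in a leaflet keep the gene. The Dzip1 mutation was studied in 3 Dzip1 S14R/+ libraries, which carry 1 copy of the S14R allele, and 3 Dzip1+/+ libraries. Dzip1 is a zinc finger protein found at the base of cilia. No source used here states the age of the mice, and no label ties a library to its own animal, so p-values measure the spread between these libraries, which may be technical.

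A replicating cell first loads the Mcm helicase on its DNA, a step called licensing, then fires the loaded origins, builds deoxynucleotides and copies the strands. It then condenses its chromosomes, attaches them to a spindle and destroys the mitotic cyclins to leave mitosis. Replication genes are classically switched on by E2F factors ahead of DNA synthesis, while mitosis genes come on later through the MuvB complex with B-Myb and FoxM1, which bind the cell cycle homology region (CHR) of promoters. In the developing valve, endocardial and interstitial cells are among those that divide. In bulk tissue, fewer dividing cells and less RNA per dividing cell cannot be told apart.

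Promoter stretches are shown because the replication and mitosis genes are set against each other throughout. RefSeq windows of 250 bases before to 50 bases after a start (GRCm38.p6) were matched for 30 of the 35 members, and none was matched for Mcm4, Ccne2, Ccna2, Aurkb and Tpx2. Windows were searched on both strands for an E2F motif (TTTCCCGC, TTTGGCGC, TTTCGCGC or TTTGCCGC), a CHR motif (TTTGAA or TTCGAA) and the CCAAT box (CCAAT). Motifs of one kind may overlap each other. A member was counted if any of its windows held the motif, while the shares over all windows are of single windows. An E2F motif lay in 6 of 13 replication genes (Mcm3, Mcm5, Mcm6, Mcm7, Cdc6 and Cdt1). It lay in 1 of 17 mitosis genes (Cdk1), against 2.26% of all 32851 windows. A CHR motif lay in 3 of 13 replication genes (Mcm2, Mcm7 and Cdc45) and in 13 of 17 mitosis genes, against 19.2% of all windows. CCAAT lay in 9 of 13 and 15 of 17, against 37.4% of all windows. A match is a description of letters and not a bound site.

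The stretches below run 5′ to 3′ to the base before the start, with E2F, CHR and CCAAT motifs of either strand in capitals. Mcm5 and Mcm6 stand for the replication genes, and Cdc20, Mki67 and Top2a for mitosis genes that hold CHR motifs but no E2F motif. Cdk1 holds all 3 kinds. The stretches lie at chr8:75109346-75109508 on the forward strand (Mcm5), and on the reverse strand at chr1:128359706-128359825 (Mcm6), chr10:69352913-69353130 (Cdk1), chr4:118437344-118437406 (Cdc20), chr7:135716380-135716577 (Mki67) and chr11:99024190-99024426 (Top2a).
Mcm5: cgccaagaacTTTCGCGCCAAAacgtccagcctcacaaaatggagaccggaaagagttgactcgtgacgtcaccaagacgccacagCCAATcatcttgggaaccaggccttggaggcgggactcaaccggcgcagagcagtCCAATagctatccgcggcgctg
Mcm6: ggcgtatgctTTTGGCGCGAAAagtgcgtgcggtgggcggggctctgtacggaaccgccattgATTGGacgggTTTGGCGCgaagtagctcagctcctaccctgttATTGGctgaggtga
Cdk1: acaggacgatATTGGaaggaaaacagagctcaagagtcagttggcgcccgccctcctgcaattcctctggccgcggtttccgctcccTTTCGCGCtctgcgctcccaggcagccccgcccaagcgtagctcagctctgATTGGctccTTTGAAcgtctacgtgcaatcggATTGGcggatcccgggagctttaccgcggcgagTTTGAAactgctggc
Cdc20: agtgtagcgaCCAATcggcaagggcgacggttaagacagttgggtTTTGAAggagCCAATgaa
Mki67: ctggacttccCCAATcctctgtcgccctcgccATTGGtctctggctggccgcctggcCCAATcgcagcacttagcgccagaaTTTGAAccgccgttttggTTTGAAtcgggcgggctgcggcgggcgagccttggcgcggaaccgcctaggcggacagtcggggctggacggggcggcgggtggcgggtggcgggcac
Top2a: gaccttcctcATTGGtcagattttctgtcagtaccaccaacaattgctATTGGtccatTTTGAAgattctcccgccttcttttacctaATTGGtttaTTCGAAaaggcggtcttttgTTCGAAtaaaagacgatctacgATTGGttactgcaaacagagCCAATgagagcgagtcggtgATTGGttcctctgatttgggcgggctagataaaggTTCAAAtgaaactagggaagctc

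Before the results, some libraries stand apart and touch all that follows in the Ift88 experiment. Total counts were 31.4, 40.3 and 23.4 M in the knockout libraries and 31.4 and 53.8 M in the wild type, against 86.0 to 93.5 M in S14R/+ and 75.1 to 79.1 M in its wild type. The variation of a typical gene between libraries of 1 genotype, as edgeR estimates it, was 87.7% for Ift88 and 7.85% for Dzip1. Ift88 stood at 3.03, 4.12 and 0.428 CPM (counts scaled to the library total) in the knockout and at 6.31 and 21.2 CPM in the wild type, so the libraries follow their labels without overlap, with a log2 fold change of -2.48 ± 1.13 (SE, adjusted p = 0.802 by edgeR with Benjamini-Hochberg adjustment). Knockout replicate 3 held Y-linked transcripts at a summed 188 CPM with no Xist count, while the other 4 libraries of that experiment held Xist at 12.3 to 106 CPM. The 17 cardiomyocyte markers summed to 33690 to 43281 CPM in the knockout, against 65064 CPM in wild-type replicate 1 and 201 CPM in wild-type replicate 2. The 9 endothelial markers summed to 1683 to 2853 CPM in the knockout, against 242 and 2585 CPM in the wild type. The 11 interstitial markers summed to 8436 to 12417 CPM in the knockout, against 2371 and 8370 CPM. Markers of the leaflet's endothelial and interstitial cells were thus present in every library, none of them at 0, but at unequal levels. The part of this make-up in the results was not tested.

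In the Ift88 experiment the members did not differ between genotypes beyond the spread between libraries. No member passed an adjusted p of 0.05 in edgeR's quasi-likelihood test, and neither did any other gene (0% of all tested genes). At an unadjusted p under 0.05 there were 2 members and 856 genes. DESeq2 called 218 genes, 211 higher and 7 lower in the knockout (1.53%), none of them a member, and limma-voom called none. The median log2 fold change, knockout over wild type, was -0.11 over the replication genes and -0.38 over the mitosis genes, against -0.01 over all tested genes. A positive fold change was seen in 12 of the 35 members, against 49.4% of all tested genes. By CPM, knockout libraries lay all above the wild type in 2 members (Mcm6 and Cdc6), against 15.4% of all genes. They lay all below it in 3 (Cdc45, Ccne2 and Cenpa), against 7.55%. Much of this hung on wild-type replicate 1: without it the medians were 0.26 and 0.21, against 0.15 over all genes, 26 members were positive, and edgeR called 187 genes, none of them a member.

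The subunits of the Mcm2-7 helicase, which unwinds DNA at the fork, lay near the wild type. Mcm6 stood at 177, 216 and 197 CPM in the knockout and 151 and 147 CPM in the wild type, higher by CPM without overlap. After division by edgeR's TMM scaling factors the Mcm6 groups overlapped. Those factors were 0.837 in wild-type replicate 1 and 1.01 in knockout replicate 1. The log2 fold change of Mcm6 was 0.25, with a 95% interval of -0.53 to 1.04. Mcm2 stood at 90.7, 51.7 and 122 CPM against 85.0 and 67.9 CPM in the wild type. The groups overlapped for Mcm2, as they did for Mcm3, Mcm4, Mcm5 and Mcm7. Mcm3 averaged 72.4 ± 9.39 CPM in the knockout (SD, n = 3) and 62.2 ± 5.35 CPM in the wild type (SD, n = 2). For Mcm4 the means were 72.6 ± 23.6 and 51.1 ± 13.3 CPM, for Mcm5 83.7 ± 28.4 and 81.4 ± 14.4 CPM, and for Mcm7 95.6 ± 13.3 and 83.5 ± 5.51 CPM, in the same order. The 6 log2 fold changes ran from -0.12 (Mcm5) to 0.39 (Mcm4), and every 95% interval held 0. That of Mcm5 was 0.04 with library totals, the scaling of the CPM values, in place of the TMM scaling (edgeR's trimmed means) behind all fold changes here. Bub1, Pcna, Rrm1 and Tpx2 also turned positive with library totals, and 17 members in all were then positive.

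The loaders of that helicase were low and uneven. Cdc6, the ATPase that brings the helicase to origins, stood at 7.49, 10.4 and 8.18 CPM in the knockout, against 4.14 CPM in wild-type replicate 1 and 0 counts in wild-type replicate 2. A count of 0 among 53.8 M allows up to 0.0558 CPM, counting error only. Cdt1, its partner in loading, stood at 16.9, 4.32 and 3.77 CPM in the knockout and 13.9 and 9.26 CPM in the wild type, and the groups overlapped. The knockout thus lay above the wild type for Cdc6, with an interval of -3.18 to 6.70 around a log2 fold change of 1.76, and on both sides of it for Cdt1.

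Cdc45 and the E cyclins Ccne1 and Ccne2 had negative fold changes, though none passed the threshold. Of all 14244 tested genes, 7.55% had the knockout libraries all below the wild type. An unadjusted p under 0.05 by edgeR was met by 856 of them. Ccne2, an E cyclin that activates Cdk2, stood at 15.5, 17.9 and 9.55 CPM in the knockout and 62.5 and 21.2 CPM in the wild type, without overlap. Its log2 fold change was -1.77 ± 0.654 (SE, unadjusted p = 0.034 and adjusted p = 0.802 by edgeR with Benjamini-Hochberg adjustment). Ccne2 spans 11191351 to 11204779 on the forward strand of chromosome 4 (GRCm38), and 17.4% of its exonic bases also lie in exons of Ints8. Cdc45, which joins the helicase when an origin fires, stood at 12.5, 10.4 and 6.81 CPM against 30.6 and 19.4 CPM in the wild type. The groups were again apart, with a log2 fold change of -1.51 ± 0.59 (SE, unadjusted p = 0.0419 and adjusted p = 0.802 by the same test). Without wild-type replicate 1 the log2 fold change was -0.55 for Ccne2 and -0.94 for Cdc45. Ccne1, the other E cyclin, stood at 6.89, 16.7 and 10.9 CPM in the knockout and 33.3 and 11 CPM in the wild type, with overlap. Pcna, the sliding clamp of DNA polymerases, averaged 147 ± 25.7 CPM in the knockout and 140 ± 55.2 CPM in the wild type.

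Among the 3 genes of nucleotide supply, Rrm2 turned on a single library. Rrm2, the regulated subunit of ribonucleotide reductase, stood at 149, 84.4 and 74.5 CPM in the knockout, against 532 and 40.4 CPM in the wild type. The knockout values lay between those of the 2 wild-type libraries, and the log2 fold change of -1.76 ± 1.01 (SE, adjusted p = 0.844 by edgeR with Benjamini-Hochberg adjustment) became 1.38 without wild-type replicate 1. Rrm1, the partner subunit, averaged 189 ± 71.9 CPM in the knockout and 168 ± 77.1 CPM in the wild type. Tyms, which makes thymidylate, stood at 64.7, 69.1 and 64.8 CPM in the knockout and at 38.3 and 101 CPM in the wild type. Tyms was thus nearly level across the knockout libraries and uneven across the wild type.

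Mitosis genes varied more between libraries of 1 genotype than replication genes did, and above all within the knockout. Knockout replicate 3 held the lowest level of the 5 libraries in 16 of 20 mitosis genes and in 3 of 15 replication genes, against 17.4% of all tested genes. It was the lowest of the 3 knockout libraries in all 20 mitosis genes, against 38.3% of all tested genes. The exceptions over all 5 libraries were Bub1, Prc1, Top2a and Mki67, which were lowest in wild-type replicate 2. Wild-type replicate 1 held the highest level in 10 mitosis and 5 replication genes, against 16.7% of all tested genes.

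Cyclins and their kinase show the pattern. Ccnb1, the cyclin that starts mitosis, stood at 246, 178 and 41.8 CPM in the knockout and 413 and 169 CPM in the wild type. Ccna2, a cyclin of S phase and early mitosis, stood at 266, 200 and 41.8 CPM against 451 and 149 CPM in the wild type. Knockout replicates 1 and 2 lay between the wild-type libraries for both cyclins, and replicate 3 lay below all the others. Cdk1, the kinase they activate, stood at 128, 106 and 31.5 CPM in the knockout and 207 and 69.8 CPM in the wild type. Ccnb2, the second B cyclin, stood at 131, 73.8 and 22.7 CPM against 144 and 90.4 CPM. Their log2 fold changes lay between -1.11 (Ccnb1) and -0.79 (Ccnb2), and every 95% interval held 0.

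Mitotic kinases and checkpoint genes followed. Plk1, a kinase of spindle assembly and mitotic entry, stood at 42.9, 32.8 and 8.65 CPM in the knockout and 61.3 and 29.3 CPM in the wild type. Birc5, the survivin subunit of the chromosomal passenger complex, stood at 105, 54.6 and 16.9 CPM against 104 and 73.7 CPM. The widest drop within the knockout among the 6 genes of this group was that of Bub1b, the checkpoint protein BubR1, at 82.0, 41.9 and 4.97 CPM against 55.2 and 41.9 CPM in the wild type. Bub1, a checkpoint kinase at kinetochores, was flat within the knockout at 46.5, 36.0 and 32.7 CPM, against 58.4 and 15.3 CPM. Aurka, the centrosomal Aurora kinase, averaged 39.0 ± 13.9 CPM in the knockout and 59.9 ± 36.1 CPM in the wild type, and Aurkb, the Aurora kinase of the passenger complex, 41.0 ± 13.1 and 49.3 ± 12.7 CPM. All 6 had negative fold changes, from -0.88 (Plk1) to -0.18 (Bub1), and overlapping groups. That of Bub1 was 0.06 with library totals as the scaling.

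At the centromere the members went apart. Cenpa, the histone H3 variant that marks centromeres, stood at 151, 71.6 and 41.3 CPM in the knockout and 202 and 185 CPM in the wild type, lower without overlap. Its log2 fold change of -1.27 ± 0.586 (SE, adjusted p = 0.802 by edgeR with Benjamini-Hochberg adjustment) did not pass. With 1 library left out, that of Cenpa ranged from -1.98 (without knockout replicate 1) to -0.93 (without knockout replicate 3). Cenpe, a kinetochore motor, stood at 25.9 and 17.8 CPM with 0 counts in knockout replicate 3, against 7.61 and 0.335 CPM in the wild type. The 0 among 23.4 M counts allows up to 0.128 CPM. Cenpf, a large kinetochore protein, stood at 37.3, 36.3 and 8.56 CPM in the knockout, against 14.1 and 17.6 CPM in the wild type, so replicates 1 and 2 lay above both wild-type libraries and replicate 3 below them.

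Of the spindle genes, Tpx2 and Nusap1 shared that split of the knockout. Tpx2, which activates Aurora A on the spindle, stood at 40.1, 48.8 and 9.33 CPM in the knockout and 31.0 and 29.4 CPM in the wild type. Nusap1, a microtubule-bundling protein, stood at 72.6, 59.1 and 20.1 CPM against 40.2 and 20.9 CPM, and Prc1, which bundles the central spindle, at 157, 141 and 53.8 CPM against 134 and 32.4 CPM. For all 3, knockout replicates 1 and 2 lay above both wild-type libraries by CPM. For Prc1 this did not hold after division by TMM factors, and knockout replicate 3 lay between the wild-type libraries. Cdc20, the activator of the anaphase-promoting complex, stood at 126, 92.0 and 47.5 CPM in the knockout and 112 and 88.2 CPM in the wild type. Ube2c, the ubiquitin-conjugating enzyme of that complex, stood at 163, 125 and 29.8 CPM against 230 and 62.2 CPM. Ube2c spans 164769898 to 164778822 on the forward strand of chromosome 2, where 22.8% of its exonic bases also lie in exons of Tnnc2, a muscle troponin gene. It was the one member with over 20% in such an overlap.

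The 2 genes of chromosome structure stood high in the same pair of knockout libraries. Mki67, which encodes Ki-67 on the surface of mitotic chromosomes, stood at 32.6, 37.9 and 3.81 CPM in the knockout and 6.08 and 3.14 CPM in the wild type. Top2a, the topoisomerase that untangles sister chromatids, stood at 188, 201 and 58.9 CPM against 80.2 and 30.0 CPM. Knockout replicate 3 lay between the wild-type libraries for both genes. The log2 fold changes were 2.23 ± 1.09 for Mki67 (SE, adjusted p = 0.804 by edgeR with Benjamini-Hochberg adjustment) and 1.22 ± 0.748 for Top2a (SE, adjusted p = 0.854 by the same test). That of Top2a was 2.34 without wild-type replicate 1 and 0.59 without replicate 2.

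**Figure D1:**
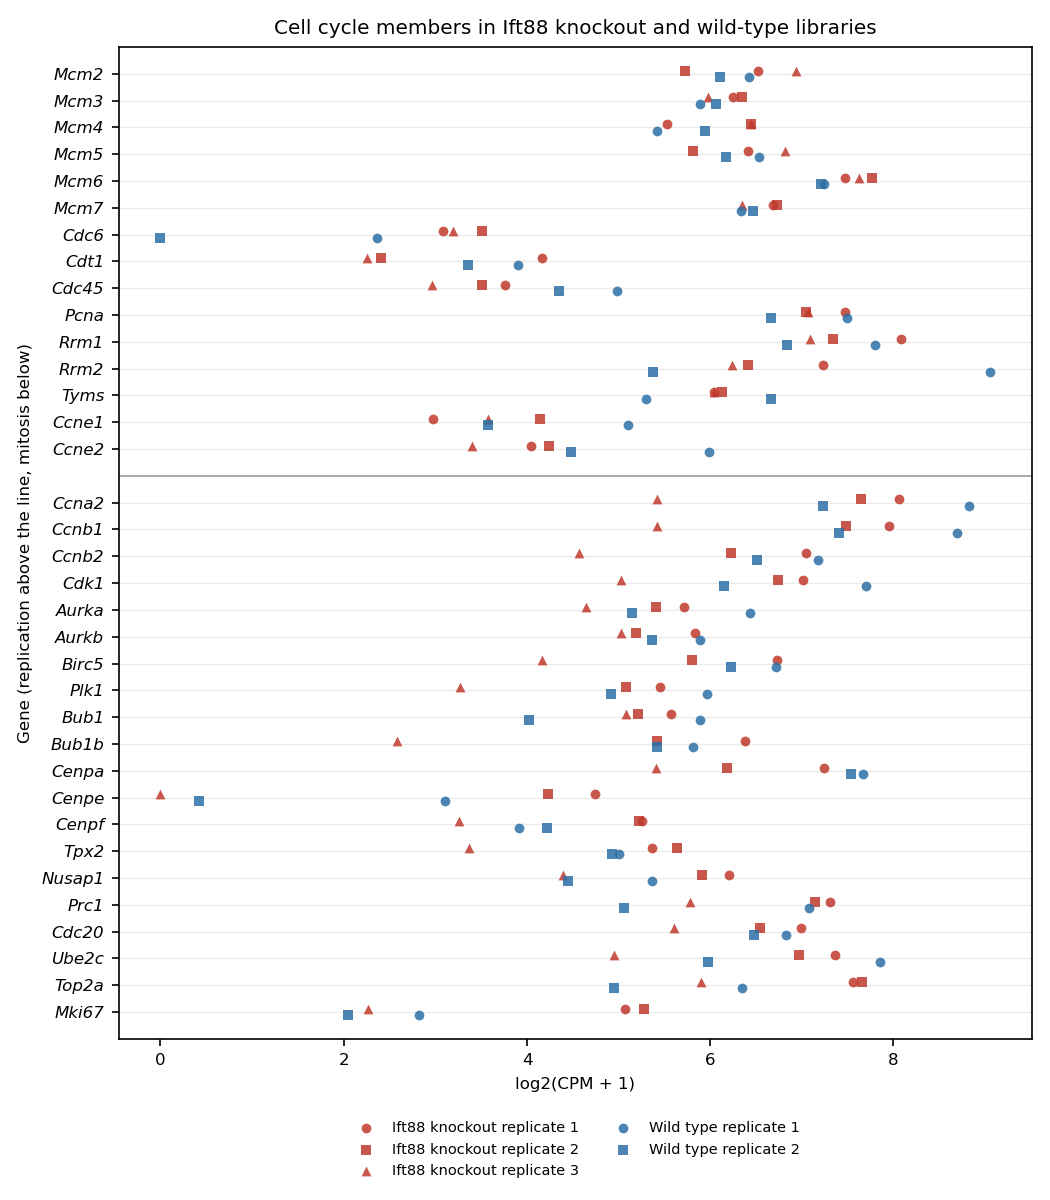
Level of each member in the Ift88 experiment as log2(CPM + 1), 1 point per library, knockout in red above wild type in blue on each line. Knockout replicate 3 (red triangles) is the leftmost point in 16 of the 20 mitosis genes and in 3 of the 15 replication genes.

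The mean log2(CPM + 1) over the 15 replication genes was 5.71, 5.57 and 5.47 in the knockout and 5.99 and 5.28 in the wild type. Over the 20 mitosis genes it was 6.44, 6.05 and 4.30 in the knockout and 6.25 and 5.22 in the wild type. Replication means thus held within a narrow range in the knockout (SD 0.13) where mitosis means did not (SD 1.14). In the wild type the SDs were 0.50 and 0.73. Single replication genes varied more within the knockout than their mean, such as Mcm2 at 90.7, 51.7 and 122 CPM and Rrm1 at 271, 161 and 135 CPM. The mitosis mean minus the replication mean was 0.73, 0.48 and -1.16 in the knockout, against 0.27 and -0.06 in the wild type, a difference of group means of -0.09. Without knockout replicate 3 that difference was 0.50, without wild-type replicate 1 it was 0.08, and in the libraries whose titles carry IR28N (knockout replicates 1 and 2 and wild-type replicate 1) it was 0.34. The direction between the genotypes therefore rested on which libraries were used. Knockout replicate 3 was also the one knockout library without IR28N in its title, the one library with Xist at 0, and the one with the lowest total. Their part in the result was not tested.

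**Figure D2:**
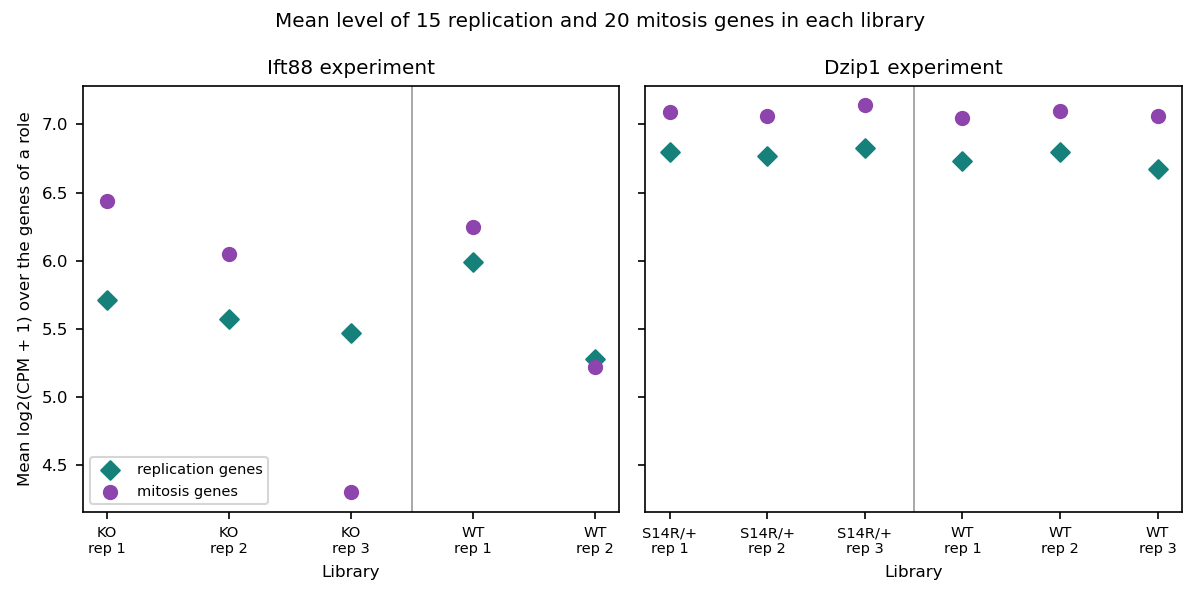
Mean log2(CPM + 1) over the replication genes (diamonds) and mitosis genes (circles) in each library, with the mutant libraries left of the wild type. In the Ift88 experiment mitosis genes drop to 4.30 in knockout replicate 3 while replication genes stay at 5.47, and in the Dzip1 experiment all 6 libraries keep mitosis above replication.

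Fold change in the Ift88 experiment also went with transcript length, taken from GENCODE M21 as the longest principal transcript. Spearman's rho between length and log2 fold change was 0.408 across 14129 tested genes, 0.566 across the 35 members and 0.648 across the mitosis genes, a description across genes that share the same 5 libraries. The 4 members over 5 kb are Cenpe, Cenpf, Top2a and Mki67, and their median log2 fold change was 1.41, against 0.77 for all 2669 tested genes of that length. The 8 members under 2 kb had a median of -0.72, against -0.42 for all 4024 such genes. After a correction for length within each library, the log2 fold change of Mki67 was 0.89, that of Top2a 0.60, that of Cenpe 0.42 and that of Cenpf -0.69. The corrected medians were -0.21 over the replication genes and -0.37 over the mitosis genes, against -0.08 over all tested genes. In the Dzip1 experiment rho across all genes was -0.0591.

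**Figure D3:**
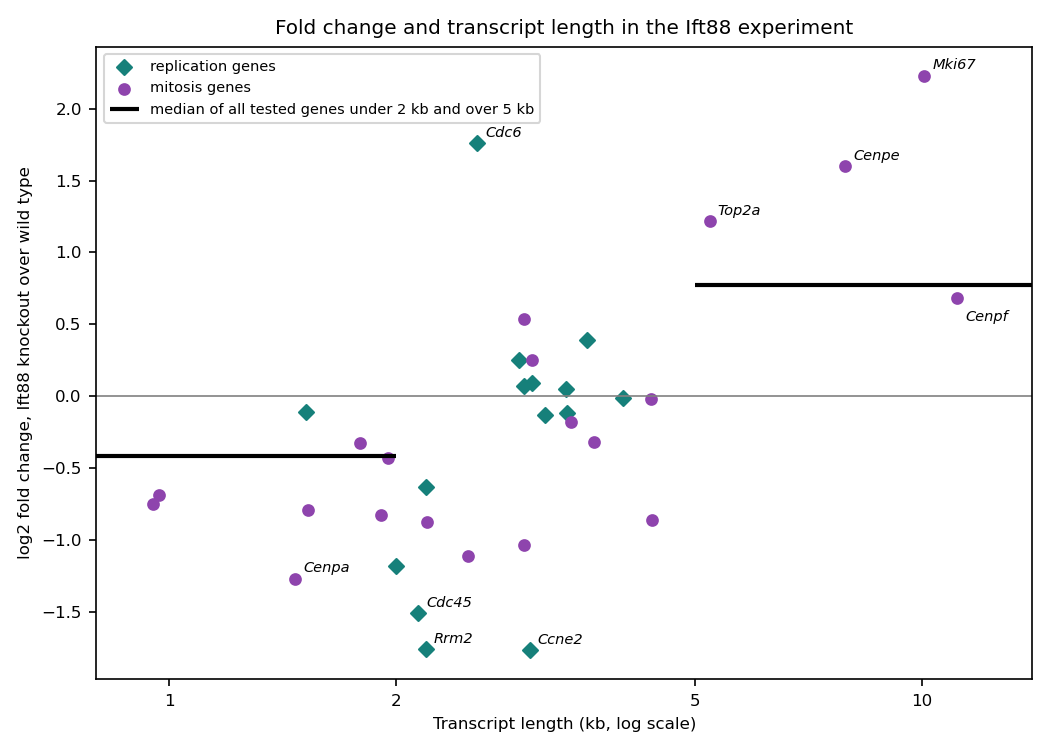
Log2 fold change, Ift88 knockout over wild type, against transcript length in kb on a log axis, 1 point per member, with black lines at the medians of all tested genes under 2 kb (-0.42) and over 5 kb (0.77). Mki67, Cenpe, Cenpf and Top2a, the 4 longest members, lie to the right with positive values.

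In the Dzip1 experiment the members had small positive fold changes in S14R/+ leaflets, and again none passed the threshold. Dzip1 itself averaged 28.6 ± 0.791 CPM in S14R/+ and 30.1 ± 2.39 CPM in the wild type (SD, n = 3 each), and gene counts do not show which allele was read. All 35 log2 fold changes, S14R/+ over wild type, were above 0 (34 with library totals as the scaling), against 49.9% of all tested genes, and they ran from 0.01 to 0.13. The median was 0.08 over the replication genes and 0.04 over the mitosis genes, against -0.00 over all tested genes. No member and no other gene passed an adjusted p of 0.05 in edgeR (0%), DESeq2 or limma-voom. At an unadjusted p under 0.05 there were 959 genes and none of the members. With 1 library left out, edgeR called at most 10 genes (without wild-type replicate 2) and no member. The members move together within a library, so their common sign is not 35 separate observations.

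Those differences were about as large as the spread between libraries of 1 genotype. S14R/+ libraries lay all above the wild type in 2 members (Cdt1 and Ccne2), against 4.58% of all tested genes, and all below it in none, against 5.86%. Wild-type replicate 3 was the lowest of the 6 libraries in 14 of 15 replication genes and 5 of 20 mitosis genes, against 16.6% of all tested genes. With TMM scaling it was the lowest in 14 and 9 of them, against 24.5% of all tested genes. Wild-type replicate 1 was the lowest by CPM in 1 replication gene, Cdc45, and in 9 mitosis genes, against 17.5% of all tested genes. S14R/+ replicate 3 was the highest of the 6 in 28 of 35 members, 12 of replication and 16 of mitosis, against 11.8% of all tested genes. Leaving out 1 library at a time gave 32 to 35 positive fold changes. Over these settings the replication median ranged from 0.04 (wild-type replicate 3 left out) to 0.12 (wild-type replicate 2 left out). The mitosis median ranged from 0.01 (S14R/+ replicate 3 left out) to 0.07 (wild-type replicate 2 left out), and was 0.02 with wild-type replicate 3 left out.

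Among licensing genes, Cdt1 stood at 75.7, 73.9 and 76.0 CPM in S14R/+ and 73.4, 72.9 and 68.6 CPM in the wild type. The S14R/+ libraries were all above the wild type, by a log2 fold change of 0.08 ± 0.0408 (SE, adjusted p = 0.828 by edgeR with Benjamini-Hochberg adjustment). Mcm7 stood at 218, 212 and 219 CPM against 204, 214 and 203 CPM, a log2 fold change of 0.07 ± 0.0386 (SE, adjusted p = 0.828 by the same test). The S14R/+ libraries overlapped the wild type through its replicate 2. Mcm2 averaged 206 ± 1.88 CPM in S14R/+ and 200 ± 10.3 CPM in the wild type, Mcm3 213 ± 5.99 and 204 ± 9.37 CPM, and Mcm4 184 ± 6.22 and 178 ± 4.67 CPM (SD, n = 3 each). Mcm5 averaged 179 ± 4.58 and 170 ± 6.23 CPM, Mcm6 240 ± 3.73 and 233 ± 9.93 CPM, and Cdc6 40.6 ± 0.773 and 38.8 ± 2.99 CPM. The 6 Mcm genes and both loaders lay between 0.06 and 0.08 on the log2 scale.

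At the fork, Pcna stood at 178, 180 and 191 CPM in S14R/+ and 169, 181 and 166 CPM in the wild type. It had the smallest p of the members, with a log2 fold change of 0.10 ± 0.0483 (SE, unadjusted p = 0.0583 and adjusted p = 0.828 by edgeR with Benjamini-Hochberg adjustment), and the groups overlapped. Cdc45 averaged 45.4 ± 1.49 CPM in S14R/+ and 42.6 ± 2.68 CPM in the wild type. Rrm2 stood at 230, 219 and 236 CPM against 204, 233 and 195 CPM, so its wild-type replicate 2 reached into the S14R/+ range. Rrm1 averaged 325 ± 9.62 CPM in S14R/+ and 312 ± 11.7 CPM in the wild type, and Tyms 45.2 ± 1.43 and 43.9 ± 1.29 CPM. Ccne2 stood at 16.9, 16.3 and 17.4 CPM in S14R/+ and 16.3, 16.0 and 14.5 CPM in the wild type, apart by a margin that 3 digits do not show. Ccne1 averaged 39.9 ± 0.812 and 37.6 ± 3.45 CPM. Rrm2 and Ccne2 shared the highest fold change of all members, 0.13.

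Mitosis genes lay closer to equal. The 3 with the smallest p were Bub1, at 86.1, 84.2 and 88.4 CPM in S14R/+ and 81.2, 86.6 and 78.7 CPM in the wild type, Ube2c, at 145, 145 and 153 CPM against 138, 148 and 138 CPM, and Aurka, at 76.6, 72.7 and 80.5 CPM against 68.9, 76.9 and 71.5 CPM. Their log2 fold changes were 0.08 ± 0.0464, 0.08 ± 0.0444 and 0.09 ± 0.0539 (SE), with adjusted p = 0.84, 0.843 and 0.843 by edgeR with Benjamini-Hochberg adjustment. In each of the 3, wild-type replicate 2 lay within the S14R/+ range and replicates 1 and 3 lay below it. Cenpa and Birc5 were the nearest to equal, at 0.01 each. Cenpa averaged 84.1 ± 0.995 CPM in S14R/+ and 84.4 ± 0.958 CPM in the wild type, lower by CPM, and Birc5 88.2 ± 2.22 and 88.1 ± 1.44 CPM.

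The cyclins and Cdk1 stood within 0.05 of the wild type on the log2 scale. Ccna2 averaged 184 ± 2.86 CPM in S14R/+ and 178 ± 6.19 CPM in the wild type, Ccnb1 147 ± 6.79 and 143 ± 4.52 CPM, Ccnb2 79.8 ± 2.13 and 77.6 ± 4.41 CPM, and Cdk1 154 ± 4.91 and 153 ± 6.25 CPM. The kinases Plk1 and Aurkb averaged 116 ± 4.58 and 62.3 ± 2.4 CPM in S14R/+, against 114 ± 3.22 and 60.7 ± 0.971 CPM in the wild type. For Bub1b the means were 183 ± 6.11 CPM in S14R/+ and 180 ± 7.72 CPM in the wild type. None of these differences was larger than the larger SD of its pair.

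Kinetochore and spindle genes had log2 fold changes of 0.01 (Cenpa) to 0.06 (Prc1). Cenpe averaged 114 ± 4.18 CPM in S14R/+ and 113 ± 1.35 CPM in the wild type, and Cenpf 177 ± 3.1 and 173 ± 4.47 CPM. Tpx2 averaged 167 ± 5.18 and 165 ± 2.58 CPM, Nusap1 76.6 ± 0.326 and 76.4 ± 1.77 CPM, and Prc1 180 ± 5.9 and 174 ± 4.48 CPM. Cdc20, which acts at mitotic exit, averaged 117 ± 5.56 CPM in S14R/+ and 113 ± 5.89 CPM in the wild type. Top2a averaged 556 ± 19.9 CPM in S14R/+ and 548 ± 3.06 CPM in the wild type, and Mki67 485 ± 21.6 and 479 ± 22.2 CPM. The intervals of these differences were narrow: that of Mki67 ran from -0.08 to 0.14 and that of Top2a from -0.06 to 0.13 on the log2 scale.

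**Figure D4:**
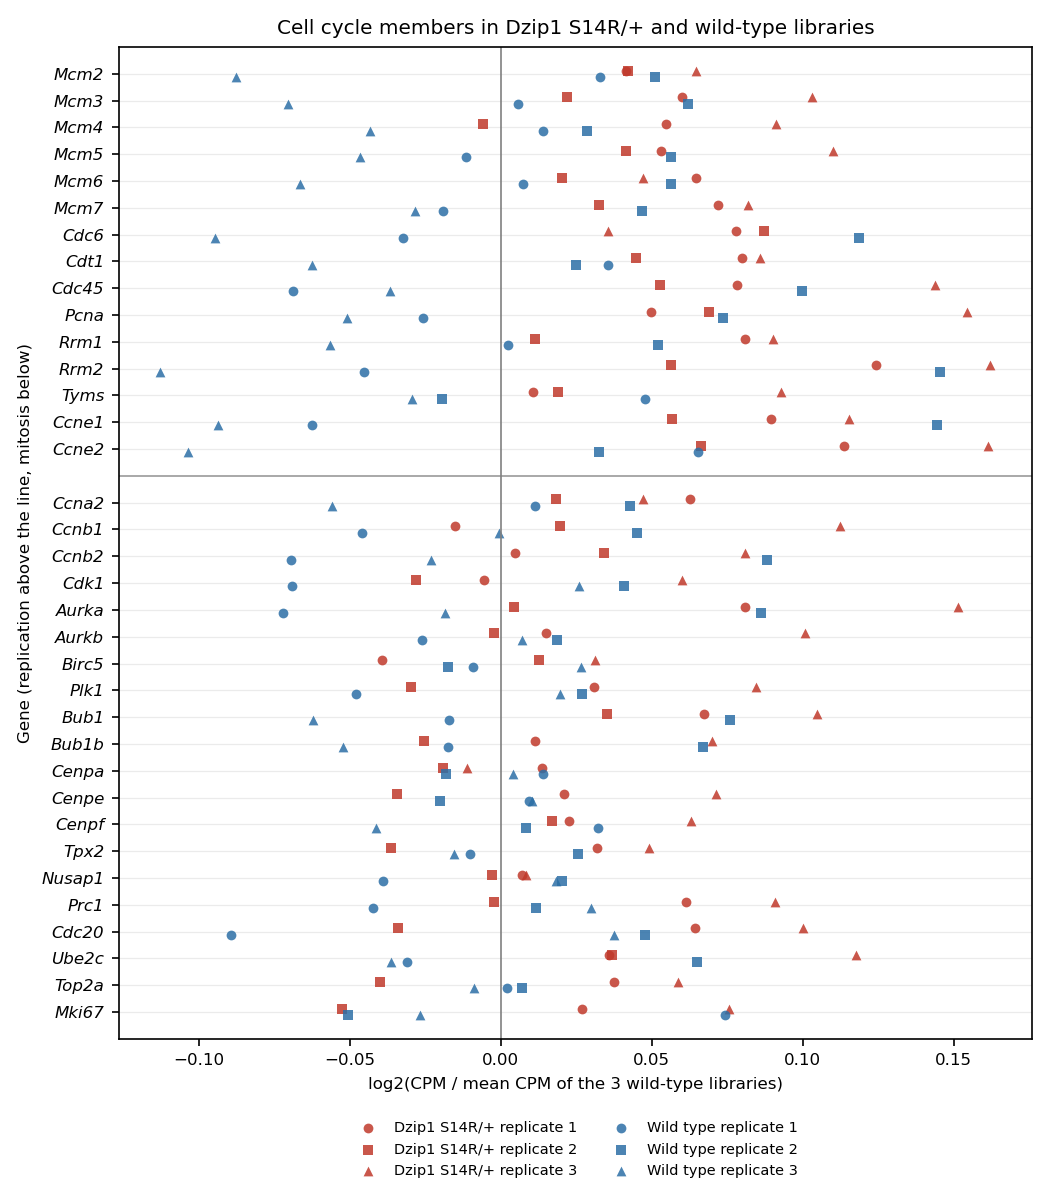
Level of each member in each Dzip1 library as log2 of its CPM over the mean CPM of the 3 wild-type libraries, S14R/+ in red above wild type in blue on each line. Wild-type replicate 3 (blue triangles) is leftmost in 14 of the 15 replication genes, and S14R/+ replicate 3 (red triangles) is rightmost in 28 of the 35 genes.

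The mean log2(CPM + 1) over the replication genes was 6.80, 6.77 and 6.83 in S14R/+ and 6.73, 6.80 and 6.67 in the wild type. Over the mitosis genes it was 7.09, 7.06 and 7.14 in S14R/+ and 7.05, 7.10 and 7.06 in the wild type. Mitosis minus replication was 0.29, 0.29 and 0.31 in S14R/+, against 0.32, 0.30 and 0.39 in the wild type, a difference of group means of -0.04 that became -0.01 without wild-type replicate 3. The genotypes overlapped, and wild-type replicate 3 was the highest of the 6 libraries. Wild-type replicate 3 and S14R/+ replicate 2 held Xist at 567 and 409 CPM, and the other 4 libraries held Y-linked transcripts at 168 to 197 CPM. With sex as a covariate the medians stayed at 0.08 and 0.04. In wild-type replicate 3 the interstitial markers summed to 9397 CPM, against 7206 to 7668 CPM in S14R/+ and 7602 and 8342 CPM in the other wild-type libraries, which made it the highest of the 6. The 9 endothelial markers summed to 1636, 1652 and 1673 CPM in S14R/+ and 1596, 1677 and 1668 CPM in the wild type, with overlap. The 17 cardiomyocyte markers summed to 47849, 47628 and 48039 CPM in S14R/+ and 45645, 46092 and 41474 CPM in the wild type, higher in every S14R/+ library. The 8 macrophage markers in that table summed to 76.2, 83.4 and 85.7 CPM in S14R/+ and 86.4, 90.3 and 106 CPM in the wild type, lower in every S14R/+ library. The 8 erythroid markers in that table summed to 947 to 1834 CPM in S14R/+ and 1605 to 3901 CPM in the wild type. The part of these markers in the result was not tested.

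**Figure D5:**
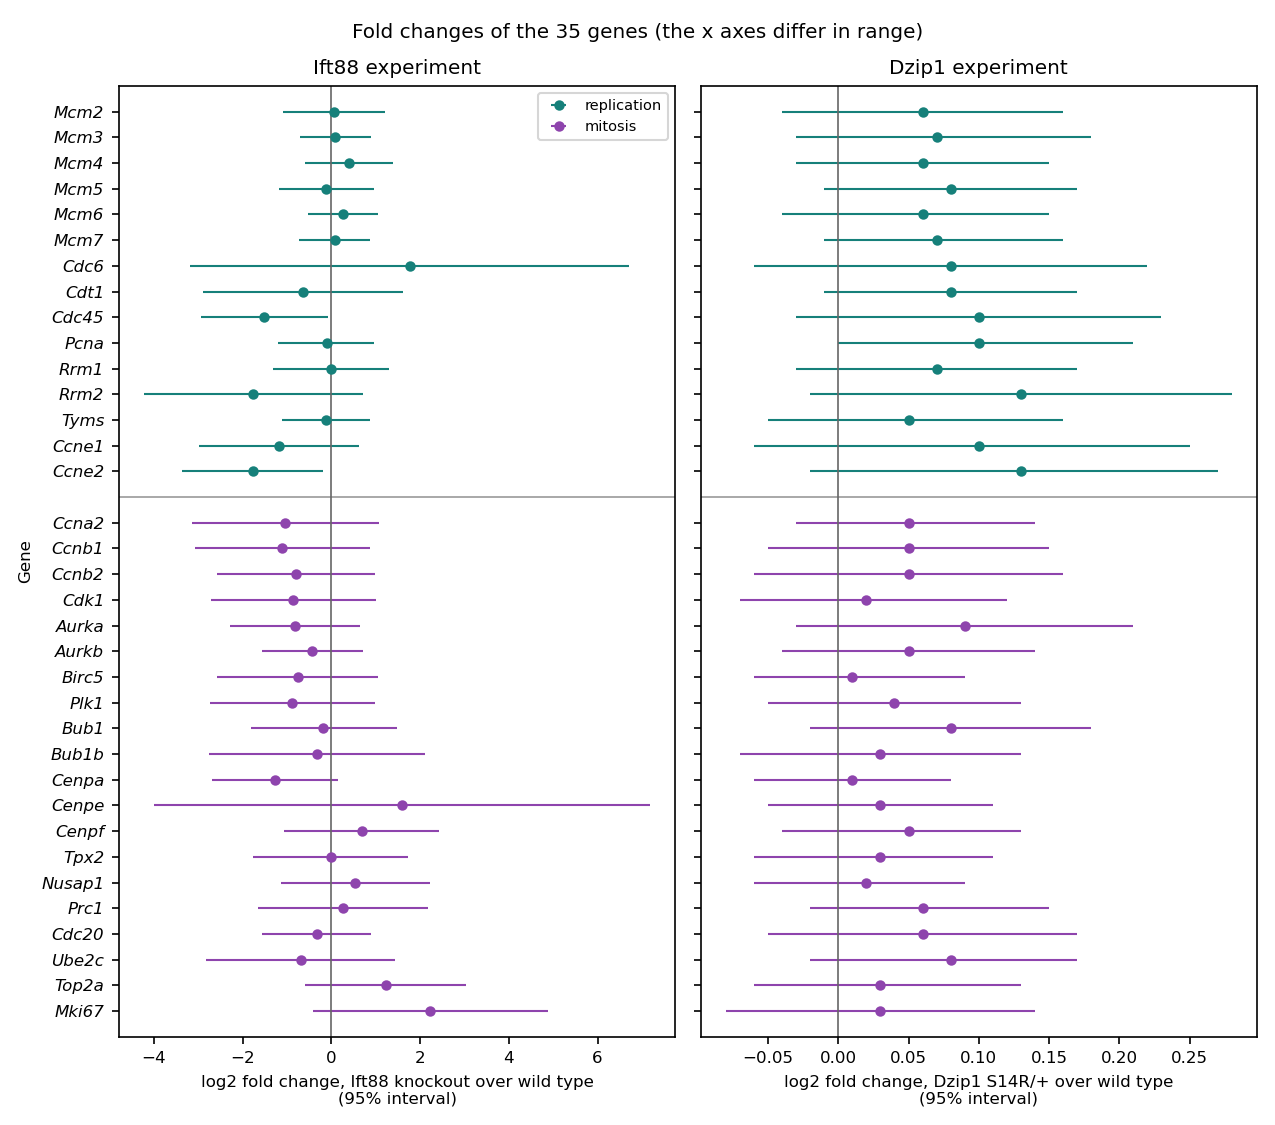
Log2 fold change with its 95% interval for each member, Ift88 knockout over wild type on the left and Dzip1 S14R/+ over wild type on the right, on axes of different range. On the left only the intervals of Cdc45 and Ccne2 exclude 0, before any adjustment, and on the right all 35 values lie between 0.01 and 0.13 with TMM scaling (34 are positive with library totals).

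The same 2 arms of the cycle were looked at in wider lists. Of 36 other replication genes, such as polymerase, primase and clamp-loader subunits, 13 had a positive log2 fold change in the Ift88 knockout (median -0.32) and 35 in S14R/+ (median 0.06). Of 37 other mitosis genes in the tables, 19 were positive in the Ift88 knockout (median 0.08) and 34 in S14R/+ (median 0.03). The shares over all tested genes were 49.4% in the Ift88 knockout and 49.9% in S14R/+. No gene of these lists passed in either experiment by edgeR with Benjamini-Hochberg adjustment. In the Ift88 experiment the smallest p values were those of Rfc1, the large clamp-loader subunit, at 28.7, 43.3 and 37.0 CPM in the knockout and 5.29 and 18.8 CPM in the wild type, and Rpa3, a subunit of the single-strand binding complex, at 34.2, 23.6 and 25.0 CPM against 49.2 and 52.7 CPM. Among the mitosis genes they were Smc2, a condensin subunit, at 82.0, 65.3 and 31.9 CPM against 20.9 and 16.6 CPM, and Ttk, the checkpoint kinase Mps1, at 17.2, 14.4 and 10.8 CPM against 4.9 and 2.62 CPM. Rfc1, Smc2 and Ttk lay higher and Rpa3 lower in the knockout without overlap, with log2 fold changes of 1.55, 1.52, 1.72 and -1.01. Knockout libraries lay all above the wild type in 5 of the 36 replication genes and all below it in 4. Of the 37 mitosis genes, 5 lay all above and 0 all below (all tested genes 15.4% and 7.55%). After the length correction Smc2 was at 0.90 and Rpa3 at -0.45, and Rfc1 was at 0.97 without wild-type replicate 1 and 2.47 without replicate 2.

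In the Dzip1 experiment the clamp-loader subunit Rfc5 averaged 44.6 ± 1.1 CPM in S14R/+ and 41.3 ± 1.01 CPM in the wild type, without overlap (log2 fold change 0.12, unadjusted p = 0.0234 in edgeR's test across all genes). Mcm10, a replication initiation factor, averaged 38.3 ± 2.01 and 34.9 ± 1.96 CPM. The mitotic kinase Melk averaged 48.4 ± 1.41 CPM in S14R/+ and 46.3 ± 0.473 CPM in the wild type, and Mad2l1, a spindle checkpoint protein, 60.1 ± 1.06 and 57.4 ± 2.73 CPM. Melk was the higher without overlap, Mcm10 and Mad2l1 with it. S14R/+ libraries lay all above the wild type in 4 of the 36 replication genes and 1 of the 37 mitosis genes. They lay all below it in 0 of either list (all tested genes 4.58% above and 5.86% below).

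Regulators of the programme were measured beside its targets. Of 17 E2F, MuvB and FoxM1 genes, 6 were positive in the Ift88 knockout and 15 in S14R/+. E2f7, a repressor of the E2F family, stood at 9.15, 11.1 and 17.2 CPM in the Ift88 knockout and 7.42 and 1.12 CPM in the wild type, and Lin37, a MuvB subunit, at 14.6, 11 and 11.7 CPM against 15 and 20.0 CPM. In S14R/+ Mybl2, which encodes B-Myb, averaged 29.5 ± 0.702 CPM, against 27.2 ± 1.9 CPM in the wild type, and E2f6, another repressor, 75.6 ± 1.7 CPM against 73.0 ± 0.716 CPM. In all 4, which had the smallest p of the list, the groups did not overlap, and in none did the adjusted p pass. In the Ift88 experiment 3 of the 17 lay all above the wild type and 1 all below it (all tested genes 15.4% and 7.55%). In S14R/+ 2 of the 17 lay all above and none below (all tested genes 4.58% and 5.86%). The log2 fold change of E2f7 was 1.28 and ranged from 0.44 to 3.49 with 1 wild-type library left out, and it was 0.58 after the length correction.

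Of 6 G1 cyclins and Cdks, 3 were positive in the Ift88 knockout and 4 in S14R/+. Ccnd1, the cyclin that links growth signals to the cycle, stood at 31.4, 36.8 and 42.2 CPM in the Ift88 knockout and 17.5 and 12.4 CPM in the wild type, while its partner Cdk4 stood at 435, 381 and 433 CPM against 445 and 723 CPM. Ccnd1 was higher and Cdk4 lower without overlap, with log2 fold changes of 1.13 and -0.58. In the Ift88 experiment 3 of the 6 lay all above the wild type and 1 all below it (all tested genes 15.4% and 7.55%). In S14R/+ Cdk6 averaged 12 ± 0.343 CPM, against 13.6 ± 1.15 CPM in the wild type, lower without overlap, and Ccnd3 389 ± 2.27 CPM, against 376 ± 14.8 CPM. In S14R/+ 0 of the 6 lay all above the wild type and 2 all below it (all tested genes 4.58% and 5.86%). Of the 9 tested Cdk inhibitors and pocket proteins, which hold cells before replication, 2 were positive in the Ift88 knockout and 9 in S14R/+. Cdkn2d stood at 77.2, 49.3 and 36.3 CPM in the Ift88 knockout, against 125 and 40.9 CPM in the wild type, and Cdkn2c at 26.3, 23.5 and 13.7 CPM against 34.6 and 23.8 CPM, both with overlap. Cdkn1c, the inhibitor p57, stood at 816, 904 and 858 CPM in S14R/+ and 799, 798 and 793 CPM in the wild type, higher without overlap (log2 fold change 0.12 ± 0.0493 SE, adjusted p = 0.828 by edgeR with Benjamini-Hochberg adjustment). Rb1, a pocket protein that restrains E2F, averaged 25.7 ± 0.561 CPM in S14R/+ and 24.4 ± 1.08 CPM in the wild type. In S14R/+ 1 of these 9 genes lay all above the wild type and 0 all below it (all tested genes 4.58% and 5.86%). The genes of these lists, too, are those with the smallest p.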

How the data were processed

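RNA of mitral leaflets was sequenced in 11 libraries, made from total RNA with SMART-Seq v4, a low-input kit, per the labels' protocols. That kit does not mark strand. The submitters' processing notes name cutadapt 1.11, FastQC 0.11.5, DESeq, DESeq2 and HTSeq, and the build GRCm38 (mm10). Aligner, annotation and strand setting: not given in the sources used here. Deposited tables hold whole-number counts per gene with different totals per library, per the file headers and the values. Each experiment has its own table and wild type and was analysed apart, and the authors' own fold changes were not used.

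Counts were divided by library totals to give CPM. Overlap between groups was judged on CPM, without TMM factors. The test was edgeR's quasi-likelihood F test (edgeR 4.0.16, R 4.3.3) over the whole table after filterByExpr and TMM scaling, calling genes at a Benjamini-Hochberg adjusted p of 0.05 or less. Fold changes are log2 of mutant over wild type. Standard errors were worked back from the same fit, as the absolute log2 fold change over the square root of F. The 95% intervals were built on these standard errors. Levels per role are means of log2(CPM + 1). The members and lists were chosen with earlier results of these data known. All 35 members are named, with fold change, SE and adjusted p for the 3 of each role with the smallest p, and the 2 with the smallest p of each wider list. Replicate numbers follow accession order, and samples were grouped by the genotype label.

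Alternatives were RLE, upper-quartile and library-total scaling, no filter beyond 1 count, a mean count of at least 50, DESeq2 1.42.0, limma-voom (limma 3.58.1), an adjusted p threshold of 0.1, a lowess correction for transcript length (span 0.3), each library left out, the IR28N libraries alone, sex as a covariate (Dzip1), role lists without Ccna2, Top2a, Mki67, Ccne1 and Ccne2, and other pseudocounts. Counts of positive fold changes and of lowest libraries under other settings were added after seeing the data. Transcript lengths were found for 25326 of 28591 symbols, 1079 of them through a RefSeq synonym, and for all 35 members. Of the 35 members, 10 share exonic bases with another gene and 4 (Pcna, Tyms, Ccnb1 and Ccnb2) have a pseudogene of their name, so their counts are less certain: without strand, reads of overlapping genes cannot be told apart. The fits were tried on simulated data with changes larger than that of any member, so detection of smaller changes was not tested.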

Additional observations from a re-analysis of the deposited data

How the results depend on the processing

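In the Ift88 experiment DESeq2 called 218 genes where edgeR called 0, and leaving out 1 library at a time gave 0 to 187 genes, the 187 without wild-type replicate 1. No member was called under any setting run, in either experiment. The replication median ranged from -0.44 to 0.26 with 1 library left out and was -0.51 in the IR28N libraries alone (all genes 0.23) and 0.07 with library totals alone, a scaling under which the median of all genes was 0.10. The mitosis median ranged from -0.96 to 0.21 with 1 library left out. Members with a positive fold change numbered 9 to 26 of 35, and the 26 came without wild-type replicate 1. Replication genes lowest in knockout replicate 3 numbered 5 with TMM factors and 3 without them, and mitosis genes 16 in both. Without wild-type replicate 1 the log2 fold change of Rrm2 was 1.38 and that of Cdkn2d 0.44, the opposite of their signs with all libraries; over the left-out libraries they ranged from -2.67 to 1.38 and from -1.50 to 0.44. In the Dzip1 experiment 0 to 10 genes were called with 1 library left out (the 10 without wild-type replicate 2), and the replication median ranged from 0.04 to 0.12 and the mitosis median from 0.01 to 0.07. The cause of these shifts was not tested. No paired analysis was possible because the labels give the groups no shared replicate numbers. With 1 wild-type library left in the Ift88 experiment, that library is assumed to vary like the others. The lengths of the 95% intervals there, and the 2 wild-type libraries, limit what can be detected.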

Other observations

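Levels of the members can be set side by side across the experiments only as values, since the 2 tables were made apart, and no test was run. The titles of all 5 Ift88 libraries are marked as re-analyzed, and those of the 6 Dzip1 libraries are not. Mki67 had 3.14 to 37.9 CPM in the 5 Ift88 libraries and 462 to 505 CPM in the 6 Dzip1 libraries. The other long members were also low in the Ift88 libraries: Cenpe had 0 to 25.9 CPM there and 110 to 118 CPM in the Dzip1 libraries, Cenpf 8.56 to 37.3 and 168 to 181 CPM, and Top2a 30.0 to 201 and 533 to 571 CPM. Of the licensing genes, Cdt1 had 3.77 to 16.9 CPM in the Ift88 libraries and 68.6 to 76.0 CPM in the Dzip1 libraries, a ratio of medians of 0.126, the lowest of the licensing genes, against 0.186 for Cdc6 and 0.314 to 0.742 for the 6 Mcm genes. Across the 7 mitosis genes under 2 kb the ratio of medians ran from 0.554 (Aurka) to 1.79 (Cenpa). Cenpa had a median of 151 CPM in the Ift88 libraries and 84.2 CPM in the Dzip1 libraries. In the same order, Ccnb2 had 90.4 and 78.7 CPM, and Ube2c 125 and 145 CPM. Mitosis genes of 2 to 5 kb had ratios from 0.187 (Tpx2) to 1.24 (Ccnb1), and those over 5 kb from 0.0127 (Mki67) to 0.146 (Top2a). Within the Dzip1 libraries the median CPM per kb of transcript was 150 for Ube2c, 105 for Top2a, 65.0 for Cdc20 and 47.7 for Mki67. Within the Ift88 libraries it was 129 for Ube2c, 15.4 for Top2a, 51.3 for Cdc20 and 0.605 for Mki67. The part of depth, age and library make-up in these levels was not tested.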
